A study of Mus musculus with 6 samples.

Results

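Sphingolipid and ceramide metabolism was examined in the livers of Nogo knockout mice and wild-type littermates, through 35 genes chosen by name among the 54232 genes of the count table. The genes encode the subunits of serine palmitoyltransferase and their ORMDL regulators, ceramide synthases and desaturases, enzymes that make and break down sphingomyelin and glycosylceramides, ceramidases, and the enzymes, exporter and receptors of sphingosine 1-phosphate. All 35 names matched exactly 1 row each. Of them 32 passed the filter on low counts and were tested, and Degs2, Fa2h and Sgms2 did not pass it. The RNA came from the livers of 6 mice aged 8 weeks on normal chow, 3 labelled Nogo-/- and 3 labelled WT. Nogo is the protein product of Rtn4, and not given in the sources used here were the part of that gene that the Nogo-/- allele lacks, the strain and the sex of the mice. The labels describe whole liver, so each library mixes hepatocytes with endothelial, immune and other cells, and fewer cells of a type and less RNA per cell cannot be told apart. Livers are named by genotype and the submitters' own number, which gives wild type 2, 4 and 11, and knockout 1, 2 and 4.

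Sphingolipids are built in the endoplasmic reticulum, where serine palmitoyltransferase joins serine to a fatty acyl-CoA in the first and rate-limiting step, and the ORMDL proteins hold that enzyme back when ceramide is plentiful. Ceramide, made by the ceramide synthases and finished by the desaturase DEGS1, is the branch point from which sphingomyelin and glycosylceramides are made and to which hydrolases return them. Ceramidases split ceramide into sphingosine, and sphingosine kinases turn this into sphingosine 1-phosphate, a signal to endothelial and immune cells. Nogo-B, the main Nogo form outside the nervous system, is known from endothelial cells to bind serine palmitoyltransferase and lower its activity, and liver ceramide is known for its link to insulin resistance.

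The libraries held 17568223 to 20902369 counts, and a floor of 3 counts stood for 0.139 to 0.199 CPM (counts relative to library size, scaled with the TMM method), a limit that covers counting error only. Rtn4 was at 40.5, 52.8 and 56.0 CPM in wild type 2, 4 and 11 and at 4.63, 8.22 and 4.69 CPM in knockout 1, 2 and 4 (−3.08 ± 0.26 SE on the log2 scale, edgeR adjusted p = 0.00101), in accord with the labels. Mitochondrially encoded genes took 6.17% to 6.90% of the wild-type counts, but 28.6%, 19.7% and 11.8% for knockout 1, 2 and 4, so this share moved with genotype. Summed levels of hepatocyte markers overlapped between genotypes (82637 to 99417 CPM in wild type, 74645 to 105764 CPM in knockout, 8 genes), with Serpina1c called higher and Cps1 lower. Of 11 lymphocyte markers, with 9 tested, 5 rose, and their sum went from 6.13 to 9.29 CPM in wild type to 16.0 to 28.7 CPM in knockout. Of 6 neutrophil markers the 3 tested rose (S100a8, S100a9 and Csf3r), and the sum went from 2.66 to 3.39 CPM in wild type to 6.86 to 17.2 CPM in knockout. Of all tested genes 8.76% rose and 8.29% fell. Of 8 Kupffer cell and 7 stellate cell markers 0 were called. Epcam fell among the cholangiocyte markers and Alas2 among the erythroid ones. Exocrine pancreas markers, 0 of 5 called, summed to 57.6, 3.41 and 1.53 CPM in wild type 2, 4 and 11. In the knockouts that sum was 21.2 to 25.9 CPM. The part of these differences in the results below was not tested, and values with a library left out or with the mitochondrial share in the model are given as description. The share did not overlap between genotypes, so a fit with it in the model cannot tell share and genotype apart. That fit called 0 of the 13304 tested genes, so Rtn4 was not called in it either.

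In knockout liver the neutral ceramidase gene Asah2, the ORMDL regulator Ormdl2 and the dihydroceramide desaturase Degs1 fell, and the sphingomyelin phosphodiesterase Smpd2 rose. Asah2 and Ormdl2 dropped to 0.274 and 0.273 of their wild-type means, Degs1 to 0.666, and Smpd2 was at 2.03 times its wild-type mean. These were the 4 called genes among the 32 tested, at a Benjamini-Hochberg adjusted p under 0.05 over all 13304 tested genes by the quasi-likelihood F test of edgeR. Fold changes are log2 of knockout over wild type ± standard error (SE), and a gene is said to have risen or fallen where it was called. Called members made up 12.5% of those tested, against 17.0% over all tested genes, so their number does not set the group apart. Members that fell made up 9.38% (3 genes) against 8.29% of all tested genes, and the 1 that rose made up 3.12% against 8.76%. DESeq2 and limma-voom called the same 4 genes. The median log2 fold change of the 32 members was −0.20, where that of all tested genes was 0.01, and 20 of the 32 had a value below 0 (62.5%, against 49.1% of all tested genes). By library the median of the members against the wild-type mean, on the log2(CPM + 0.5) scale, was −0.33 in knockout 1, 0.00 in knockout 2 and −0.27 in knockout 4, so the lower median was not shared by knockout 2. The same median over all tested genes lay between −0.01 and 0.02 in the 3 knockout livers.

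**Figure D1:**
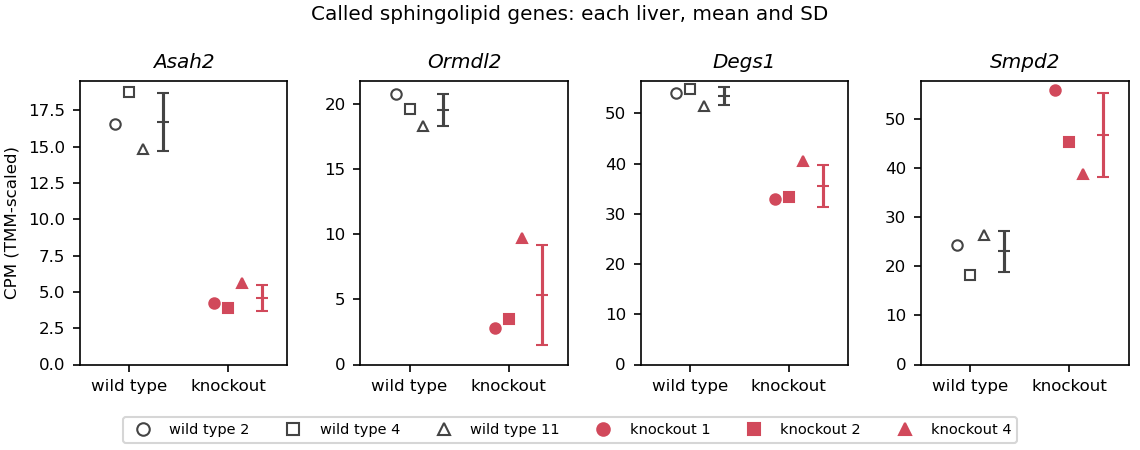
Level in CPM (TMM-scaled) of the 4 called sphingolipid genes in each liver, with open symbols for wild type, filled symbols for knockout, and a dash and bars for the mean and SD of 3 livers. In each panel the genotypes do not overlap, and knockout 4 is the knockout liver nearest to wild type.

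The sequence before the transcription start is shown for the 4 called genes, and a link between sequence and call was not tested. Each run is the part of the 250 bases upstream of the RefSeq start (GRCm38.p6) that holds no annotated exon, read 5′ to 3′ on the minus strand on which all 4 genes lie, with capitals for the motifs that were searched. Those were the E-box CACGTG, the CCAAT box CCAAT, the GC box GGGCGG and the sterol regulatory element TCACNCCAC, each on both strands. They come from chr10:128821646-128821879, chr19:32103141-32103390, chr1:182282225-182282445 and chr10:41490370-41490438 in the order shown. The Asah2 and Degs1 runs lie inside the gene for longer annotated transcripts that start further upstream, and the Smpd2 run is the 69 bases between annotated exons of Smpd2 and of its neighbour Ppil6.
Ormdl2: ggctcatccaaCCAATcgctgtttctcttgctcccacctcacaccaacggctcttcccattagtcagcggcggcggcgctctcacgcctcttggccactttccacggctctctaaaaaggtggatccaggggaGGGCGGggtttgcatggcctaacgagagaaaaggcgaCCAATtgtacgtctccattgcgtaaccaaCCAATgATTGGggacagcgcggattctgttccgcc
Asah2: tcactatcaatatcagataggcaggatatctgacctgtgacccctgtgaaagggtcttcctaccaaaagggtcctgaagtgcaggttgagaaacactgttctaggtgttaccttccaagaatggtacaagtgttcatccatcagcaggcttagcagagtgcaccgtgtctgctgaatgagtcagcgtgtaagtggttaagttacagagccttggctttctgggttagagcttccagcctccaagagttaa
Degs1: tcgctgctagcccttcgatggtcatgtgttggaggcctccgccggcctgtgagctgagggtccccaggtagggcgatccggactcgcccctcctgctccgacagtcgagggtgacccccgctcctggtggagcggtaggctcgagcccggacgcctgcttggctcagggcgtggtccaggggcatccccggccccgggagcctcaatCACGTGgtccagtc
Smpd2: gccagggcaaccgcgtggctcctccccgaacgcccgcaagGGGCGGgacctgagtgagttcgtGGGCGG
The Ormdl2 run held 4 CCAAT boxes and 1 GC box, the Degs1 run held 1 E-box, the Smpd2 run held 2 GC boxes, and the Asah2 run held no match to the 4 motifs. In the full 250 bases Ormdl2 had 5 CCAAT boxes, a number reached by 0.213% of the 32851 RefSeq promoters, and the other 3 called genes had no CCAAT in theirs. Smpd2 had 1 E-box and 4 GC boxes in its full 250 bases. The 3 genes that fell thus had no motif in common among those searched.

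RefSeq promoters were found for 32 of the 35 genes, 48 windows in all with alternative starts counted separately. The GC box was present in 56.2% of these windows against 32.7% of all promoters, the E-box in 14.6% against 6.02%, and the CCAAT box in 33.3% against 33.8%. The sterol regulatory element was in none of the 48 windows and in 1.05% of all promoters. The median GC content was 61.0% for the windows of these genes and 52.4% for all promoters, and a GC-rich motif is more frequent in GC-rich sequence. A match is a description of the letters and not of a bound site.

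Serine palmitoyltransferase is represented by its catalytic subunits Sptlc1 and Sptlc2 and the small activating subunit Sptssa. Sptlc2 was at 19.5, 19.5 and 20.5 CPM in wild type 2, 4 and 11 and at 12.8, 12.5 and 15.5 CPM in knockout 1, 2 and 4. All 3 knockout livers were thus below wild type, and the log2 fold change was −0.55 ± 0.17 SE, which missed the threshold (edgeR adjusted p = 0.0539). It was called when libraries were scaled by their totals (adjusted p = 0.0357) and without knockout 4 (adjusted p = 0.0164). Sptlc1 was at 24.7, 24.7 and 23.6 CPM in wild type and 14.8, 21.0 and 22.3 CPM in knockout (−0.33 ± 0.19, adjusted p = 0.254), with knockout 1 the lowest. Sptssa was at 56.0, 60.8 and 52.4 CPM in wild type and 39.7, 51.1 and 38.6 CPM in knockout (−0.39 ± 0.18, adjusted p = 0.151). The knockout values of all 3 subunits lay under the wild-type range, but edgeR called 0 of the 3 (1 at an unadjusted p under 0.05), as did DESeq2 and limma-voom. Per length the small subunit was the most abundant, with 37.2 ± 2.80 RPKM (CPM per kilobase of exon) for Sptssa, 6.85 ± 0.18 for Sptlc1 and 2.44 ± 0.07 for Sptlc2 (SD, n = 3 wild types). The alternative subunit genes were at or near 0 counts in these livers, Sptlc3 with 0 counts in all 6 libraries and Sptssb with 1 count in wild type 2.

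Of the ORMDL regulators, which inhibit serine palmitoyltransferase, Ormdl2 fell and the more abundant Ormdl3 did not pass the test. Ormdl2 was at 20.8, 19.6 and 18.3 CPM in wild type 2, 4 and 11 and at 2.78, 3.49 and 9.75 CPM in knockout 1, 2 and 4, from raw counts of 438, 368 and 394 and of 42, 65 and 162. The genotypes did not overlap, and knockout 4 lay between knockout 1 and 2 and the wild types (−1.87 ± 0.39, adjusted p = 0.0128). Without knockout 2 the call was lost at −1.64 (adjusted p = 0.0512), and without knockout 4 the value was −2.65 (adjusted p = 0.00014). With the mitochondrial share in the model it was −0.60 ± 0.35 (adjusted p = 0.649), and with knockout 4 as the 1 knockout it was −1.005 ± 0.22 (adjusted p = 0.114). Ormdl1 was at 17.57, 16.4 and 16.6 CPM in wild type and 10.3, 14.1 and 12.4 CPM in knockout, below wild type in each knockout liver (−0.46 ± 0.19, adjusted p = 0.11). Ormdl3 was at 77.4, 79.03 and 119 CPM in wild type and 68.8, 107 and 73.4 CPM in knockout, so its genotypes overlapped (−0.15 ± 0.24, adjusted p = 0.699). Its sign turned to 0.08 without wild type 11.

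Per length, Ormdl3 made up 72.7% ± 5.55 (SD, n = 3) of the summed ORMDL level in wild type and 86.5% ± 5.80 in knockout, while Ormdl2 made up 21.0% ± 4.44 and 7.48% ± 5.55. In single libraries the Ormdl2 share was 24.1%, 22.9% and 15.9% for wild type 2, 4 and 11, but 4.71%, 3.87% and 13.9% for knockout 1, 2 and 4. The summed ORMDL level was 51.6, 51.4 and 69.0 RPKM in wild type and 35.3, 54.0 and 42.1 RPKM in knockout, which overlapped because the abundant Ormdl3 varied between livers.

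The Ormdl2 count carries a limit of the annotation. Ormdl2 (ENSMUSG00000025353) lies at chr10:128817902-128821645 on the minus strand (mm10, GENCODE M21), and 66.7% of its exonic bases are also exonic for Dnajc14 on the plus strand. Dnajc14, which encodes a chaperone of the endoplasmic reticulum, was at 38.6, 39.2 and 30.3 CPM in wild type and 16.5, 29.0 and 24.3 CPM in knockout (−0.63 ± 0.22, adjusted p = 0.0764). Whether the counting used strand, and how it treated reads that lie in both genes, was not among the sources used here, so reads of the shared bases cannot be told apart and the Ormdl2 level is uncertain.

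The ceramide synthases attach an acyl chain to the sphingoid base, and in these livers Cers2, the synthase for very long chains, was by far the most abundant. Per length Cers2 made up 97.3% ± 0.36 (SD, n = 3) of the summed level of Cers2, Cers4, Cers5 and Cers6 in wild type and 96.7% ± 1.20 in knockout. Cers2 was at 281, 292 and 301 CPM in wild type and at 227, 209 and 281 CPM in knockout, where knockout 4 matched the lowest wild type to 3 digits (−0.29 ± 0.18, adjusted p = 0.291). Without knockout 4 it passed at −0.43 (adjusted p = 0.0492). Cers6, which makes long-chain ceramide, was at 14.9, 19.1 and 10.8 CPM in wild type and 10.7, 17.7 and 9.81 CPM in knockout, with the genotypes interleaved. Cers4 was scarce, at 1.85, 1.55 and 2.28 CPM in wild type and 3.91, 3.33 and 2.29 CPM in knockout (0.74 ± 0.32, adjusted p = 0.136), and its knockout 4 lay barely above wild type 11. Cers5 ranged from 0.747 to 1.90 CPM in wild type and from 1.26 to 2.12 CPM in knockout. The genes of the other synthases had 2 counts (Cers1) and 1 count (Cers3), both in wild type 11.

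Degs1, which puts the double bond into dihydroceramide, fell. It was at 54.0, 54.9 and 51.4 CPM in wild type 2, 4 and 11, a spread of 3.41% of the mean (coefficient of variation), and at 33.0, 33.3 and 40.4 CPM in knockout 1, 2 and 4 (−0.59 ± 0.16, adjusted p = 0.0365). No knockout liver reached the wild-type range. The call was lost in 5 of the 6 fits that left out 1 library, the exception being the fit without knockout 4, while the fold change stayed between −0.70 and −0.54. It was also lost with the replicate block (−0.57 ± 0.25, edgeR adjusted p = 0.138), which compares the genotypes within numbers 2 and 4 only. With the mitochondrial share in the model the value was −0.36 ± 0.24 (adjusted p = 0.681), and with knockout 4 as the 1 knockout −0.40 ± 0.18 (adjusted p = 0.294). Kdsr, the reductase that acts before the ceramide synthases, ranged from 15.9 to 26.2 CPM in wild type and from 17.3 to 23.2 CPM in knockout (−0.13 ± 0.22). The hydroxylases Degs2 and Fa2h were at the limit of detection, with at most 10 and 1 counts in a library.

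For the enzymes that make sphingomyelin, glucosylceramide, ceramide phosphoethanolamine or ceramide phosphate from ceramide, no member was called by edgeR, DESeq2 or limma-voom, and 0 of the 4 tested had an unadjusted p under 0.05. Ugcg, which makes glucosylceramide, was the most variable of them in wild type, at 22.0, 37.1 and 16.7 CPM, against 30.5, 35.5 and 23.9 CPM in knockout (0.25 ± 0.28). Of the sphingomyelin synthases, Sgms1 ranged from 9.24 to 13.4 CPM in wild type and from 7.70 to 11.6 CPM in knockout, and Sgms2 had 8 counts over all 6 libraries. Samd8, which makes ceramide phosphoethanolamine, was at 40.2, 40.4 and 34.7 CPM in wild type and 24.0, 36.0 and 32.1 CPM in knockout, overlapping in knockout 2 (−0.32 ± 0.19). The ceramide kinase Cerk ranged from 2.35 to 2.79 CPM in wild type and from 2.046 to 3.54 CPM in knockout.

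Among the hydrolases that return sphingomyelin and glycosphingolipids to ceramide, Smpd2, a neutral sphingomyelinase, rose. It was at 24.3, 18.3 and 26.3 CPM in wild type 2, 4 and 11 and at 55.8, 45.3 and 38.7 CPM in knockout 1, 2 and 4. Each knockout liver was above each wild type (1.02 ± 0.20, edgeR adjusted p = 0.012). By distance from wild type the knockouts ranked as by mitochondrial share, as they also did for Ormdl2 and Degs1 but not for Asah2. Such an order was not counted over all tested genes, and the part of the share was not tested. Without wild type 4, the lowest wild type, the Smpd2 value was 0.87 and the call was lost (edgeR adjusted p = 0.0609). With the mitochondrial share in the model the Smpd2 value was 0.57 ± 0.28 (edgeR adjusted p = 0.606). Of the exonic bases of Smpd2 (ENSMUSG00000019822, chr10:41485642-41490369, minus strand), 20.3% are shared with Mical1 on the other strand. Mical1 was at 0.418 to 0.617 CPM in wild type and 0.927 to 1.504 CPM in knockout, far below Smpd2. Its log2 fold change had the same sign (1.33 ± 0.41, edgeR adjusted p = 0.0506). As for Ormdl2, reads of the shared bases cannot be told apart. Smpd4, a further neutral sphingomyelinase, was at 8.64, 6.40 and 8.50 CPM in wild type and 13.5, 10.7 and 11.9 CPM in knockout, above wild type in each liver but not called (0.61 ± 0.21, adjusted p = 0.0654). The lysosomal acid sphingomyelinase Smpd1 was at 33.96, 36.9 and 35.5 CPM in wild type and 31.9, 34.5 and 37.7 CPM in knockout, and its log2 fold change of −0.03 ± 0.16 was the one nearest to 0 among the tested members. Galc, the lysosomal galactosylceramidase, was at 7.31, 7.199 and 5.39 CPM in wild type and 5.03, 4.13 and 4.39 CPM in knockout (−0.55 ± 0.23, adjusted p = 0.124). Gba2, the non-lysosomal glucosylceramidase, lay between 10.9 and 11.3 CPM in the 3 knockouts, within its wild-type range of 8.05 to 11.9 CPM.

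All 4 ceramidase genes had fold changes below 0, and Asah2 was the one called. Asah2 (ENSMUSG00000024887, chr19:31982597-32108211, minus strand) encodes neutral ceramidase, an enzyme of the plasma membrane. It was at 16.6, 18.8 and 14.8 CPM in wild type 2, 4 and 11 and at 4.24, 3.92 and 5.60 CPM in knockout 1, 2 and 4, from raw counts of 319 to 352 and of 64 to 93. The knockout livers were close to each other and far below the wild types (−1.87 ± 0.22, adjusted p = 0.00265). Asah2 was the one member called in all 6 fits that left out 1 library, with values from −2.05 to −1.76 and adjusted p-values up to 0.019. With knockout 4 as the 1 knockout it was −1.58 ± 0.26 (adjusted p = 0.0732), and with the mitochondrial share in the model −1.55 ± 0.34 (adjusted p = 0.356). No exonic base of Asah2 is shared with another annotated gene, and 0% of its 50-base words occur in transcripts of other genes. Its neighbour Sgms1, on the same strand with its 3′ end 14.5 kb from Asah2, was not called (−0.23 ± 0.23).

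The other ceramidases lay lower by less. Asah1, the lysosomal acid ceramidase, was at 31.1, 34.3 and 29.6 CPM in wild type and 16.8, 26.4 and 20.88 CPM in knockout (−0.57 ± 0.20, adjusted p = 0.0709). Acer3, an alkaline ceramidase, was at 13.6, 14.3 and 14.7 CPM in wild type and 9.47, 11.7 and 11.01 CPM in knockout (−0.41 ± 0.18, adjusted p = 0.138). For both, each knockout liver lay below the wild-type range. Acer2 ranged from 6.88 to 8.69 CPM in wild type and from 4.81 to 8.41 CPM in knockout and overlapped. Per length Asah1 was the main ceramidase gene in wild type, with 9.34 ± 0.71 RPKM (SD, n = 3) against 1.44 ± 0.17 for Asah2, 1.05 ± 0.14 for Acer2 and 0.928 ± 0.035 for Acer3. In knockout Asah2 was at 0.394 ± 0.076 RPKM, the lowest of the 4.

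For the enzymes of sphingosine 1-phosphate, edgeR, DESeq2 and limma-voom called 0 of 4 genes, and 1 had an unadjusted p under 0.05. This was Sgpp1, a phosphatase that returns sphingosine 1-phosphate to sphingosine. It was at 70.4, 67.8 and 75.5 CPM in wild type and 107, 126 and 75.3 CPM in knockout, so that knockout 1 and 2 were high and knockout 4 lay within wild type (0.53 ± 0.21, adjusted p = 0.101). Without knockout 4 it passed at 0.70 (adjusted p = 0.00925). Sgpl1, the lyase that ends the pathway, was likewise above wild type in knockout 1 and 2 but below it in knockout 4, at 55.4, 64.7 and 58.1 CPM in wild type and 74.0, 73.6 and 45.7 CPM in knockout (0.12 ± 0.21). Sphk2, at 20.85 to 38.4 CPM in wild type and 28.3 to 34.2 CPM in knockout, was far more abundant than its fellow kinase gene Sphk1, at 0.19 to 0.693 CPM and 0.483 to 1.13 CPM. Per length this was 7.10 ± 2.11 against 0.097 ± 0.053 RPKM in wild type (SD, n = 3). Of the exonic bases of Sphk2, 21.9% are shared with Dbp or Rpl18 on the other strand.

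S1pr1, the main endothelial receptor of sphingosine 1-phosphate, was at 36.2, 30.3 and 27.8 CPM in wild type 2, 4 and 11 and at 12.1, 26.8 and 23.5 CPM in knockout 1, 2 and 4. All 3 knockouts were below wild type, knockout 1 by most, and the gene was not called (−0.59 ± 0.27, adjusted p = 0.146). The receptor S1pr2 was scarce at 1.93 to 3.62 CPM over all livers. The exporter Spns2 was at 11.4, 11.04 and 21.1 CPM in wild type and 20.1, 17.8 and 14.3 CPM in knockout, with wild type 11 the highest (0.26 ± 0.27). EdgeR, DESeq2 and limma-voom called 0 of these 3 genes, and S1pr1 had an unadjusted p under 0.05. Of 10 markers of sinusoidal endothelium 4 fell (Clec4g, Kdr, Oit3 and Lyve1), and their summed level was 236, 207 and 272 CPM in wild type and 224, 165 and 133 CPM in knockout 1, 2 and 4. Among the knockouts, knockout 1 had the least S1pr1 and the highest endothelial sum. The endothelial genes Stab2, Cdh5 and Pecam1 were at 33.4, 15.03 and 10.4 CPM in knockout 1. Stab2 was above its wild-type range (25.2 to 30.7 CPM). Cdh5 was within its range (13.0 to 18.3 CPM), and Pecam1 was under its own (10.6 to 13.6 CPM). The part of endothelial content in the S1pr1 values was not tested.

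**Figure D2:**
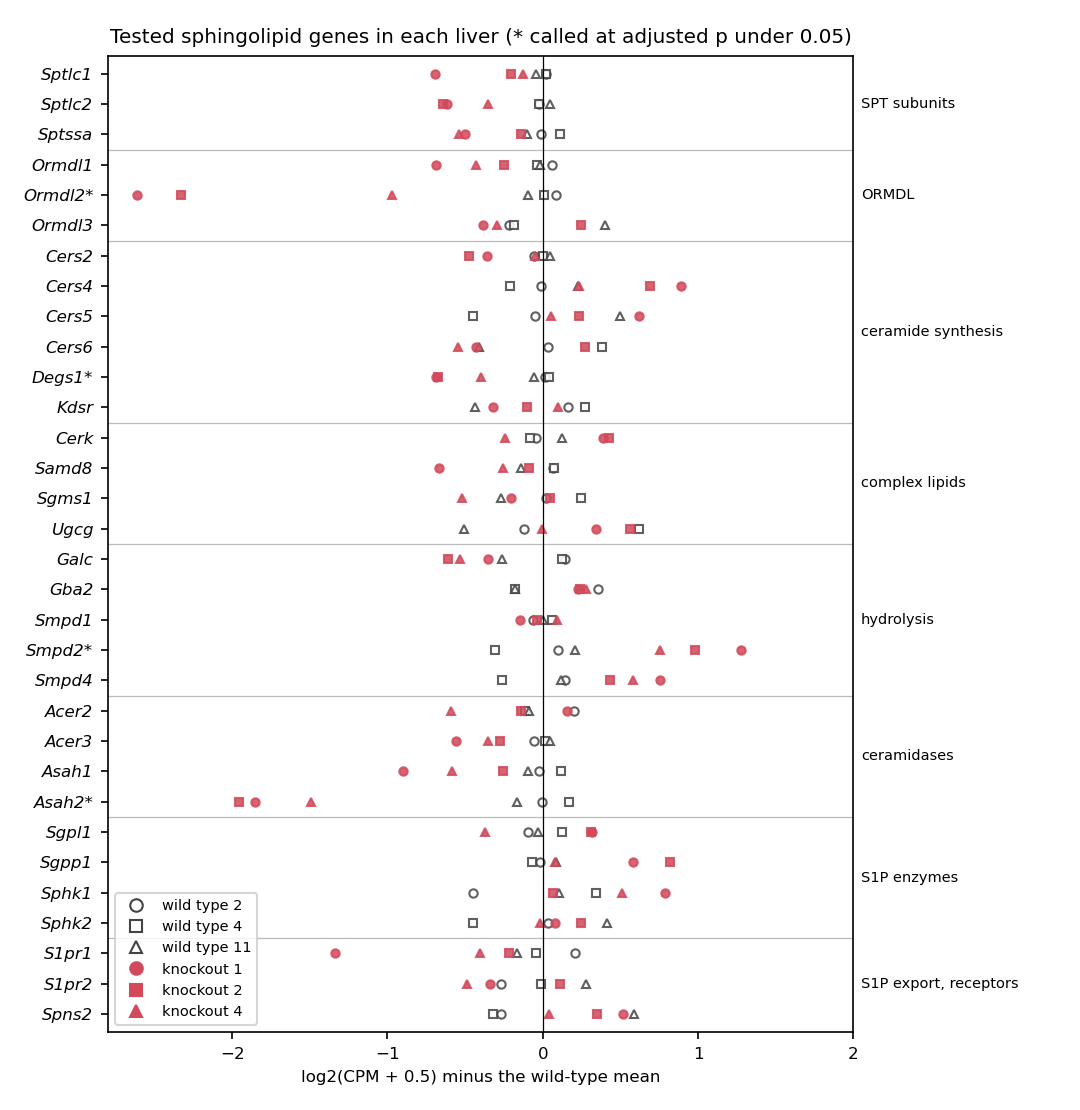
Each of the 32 tested genes in each liver, as log2(CPM + 0.5) minus the wild-type mean, grouped by role, with open symbols for wild type and filled symbols for knockout. The symbols of Ormdl2, Asah2, Degs1 and Smpd2 are well apart, while those of the enzymes that build complex sphingolipids from ceramide (complex lipids) mostly interleave.

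Levels outside the wild-type range were more frequent than calls, with 14 of the 32 tested members (43.8%) against 38.9% of all tested genes. In 11 of the 32 tested members (34.4%) the 3 knockout livers lay below all 3 wild types, and in 3 members (9.38%) above. Over all tested genes the shares were 19.2% and 19.7%. The 11 comprised the 3 subunits of serine palmitoyltransferase, Ormdl1 and Ormdl2, Degs1, Asah1, Asah2, Acer3, Galc and S1pr1, and the 3 were Smpd2, Smpd4 and Cers4. Scaling by library totals alone shifted the all-gene median to −0.16. On that scale 16 of the 32 members lay outside the range, against 38.3% of all tested genes. They were 14 below and 2 above, against 25.8% and 12.4%. Among the 11 lower genes knockout 1 was farthest from the wild-type mean in 7, knockout 2 in 3 and knockout 4 in 1. For the 4 called genes knockout 4 was the nearest to wild type each time. These counts were not made over all tested genes, where leaving out knockout 4 raised the calls from 2268 to 4046. Knockout 4 also had the smallest mitochondrial share of the knockouts, and the part of this was not tested.

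Per length the members spanned a wide range. In wild type Cers2 led with 79.3 ± 2.80 RPKM (SD, n = 3), followed by Ormdl3 with 42.0 ± 10.8, Sptssa with 37.2 ± 2.80 and Degs1 with 20.6 ± 0.70. Ormdl3 and Sptssa did not differ beyond their spread, while Cers2 and Degs1 were apart from their neighbours in that order. Sgpp1 (12.6 ± 0.70), Ormdl2 (11.7 ± 0.75), Smpd1 (10.6 ± 0.44), S1pr1 (10.3 ± 1.41) and Sgpl1 (9.67 ± 0.78) came next, each within the summed SDs of its neighbour. The lowest of the tested genes were Cers4 with 0.154 ± 0.030 and Sphk1. In knockout Ormdl2 was at 3.20 ± 2.30 RPKM and Smpd2 at 10.4 ± 1.92, where in wild type Smpd2 had been at 5.14 ± 0.94.

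**Figure D3:**
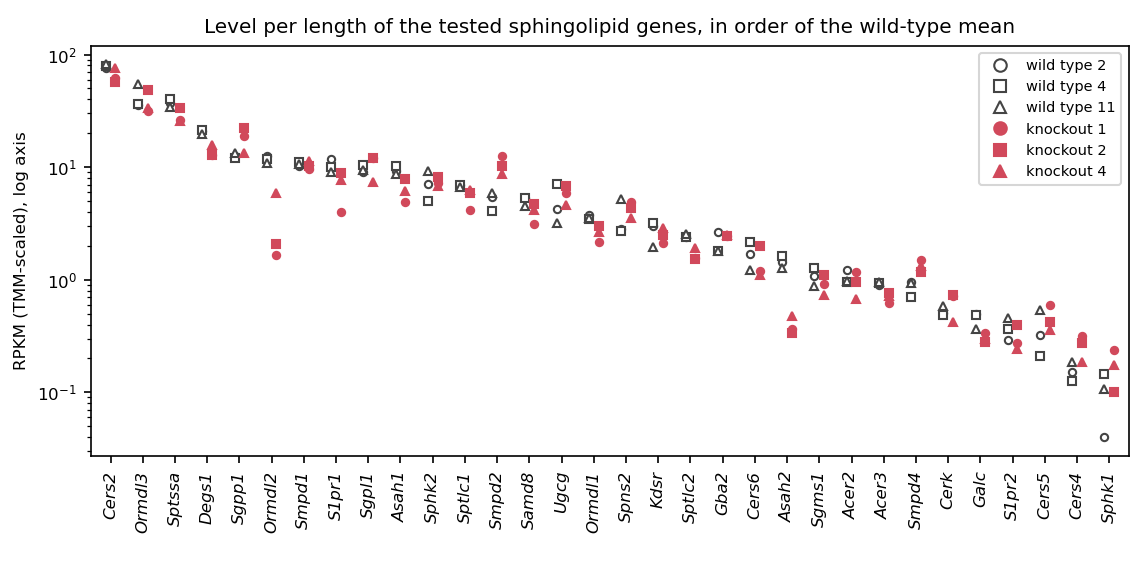
RPKM (TMM-scaled) of the 32 tested genes on a log axis, in order of the wild-type mean, with open symbols for the 3 wild-type livers and filled symbols for the 3 knockout livers. Cers2 is at the left with 79.3 RPKM, and Ormdl2 and Asah2 are the genes whose knockout symbols drop furthest below the wild-type ones.

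Beyond the 35 genes, 58 further genes of sphingolipid metabolism were listed by function, of which 40 were tested. By edgeR 6 of these were called, or 15% against 17.0% of all tested genes. All 6 fell, where 8.29% of all tested genes did, and 0 rose, where 8.76% of all did, with 1 higher gene at an unadjusted p under 0.05 and 0 rises by DESeq2 or limma-voom. Without knockout 4 there were 9 falls and 3 rises among 43 tested. Their median was −0.05. Apom, the apolipoprotein that carries sphingosine 1-phosphate in blood, was at 198, 217 and 179 CPM in wild type and 41.3, 34.6 and 101.3 CPM in knockout, with knockout 4 between the others and wild type (−1.74 ± 0.35, adjusted p = 0.0122). Without knockout 1 this call was lost (adjusted p = 0.0514). B4galnt1, which makes complex gangliosides, was at 52.1, 56.3 and 43.6 CPM in wild type and 16.6, 19.3 and 26.2 CPM in knockout (−1.29 ± 0.21, adjusted p = 0.00635). Each knockout was below each wild type. Smpdl3a, a secreted phosphodiesterase related to acid sphingomyelinase, fell from 33.1 ± 1.87 to 12.02 ± 4.32 CPM (SD, n = 3 each, −1.46 ± 0.24 SE). Plpp1, a lipid phosphate phosphatase, fell from 5.04 ± 1.43 to 1.31 ± 0.33 CPM (−1.94 ± 0.33). Hsd17b12, of the very-long-chain fatty acid elongation cycle, fell from 147 ± 7.12 to 87.1 ± 27.4 CPM (−0.76 ± 0.22, adjusted p = 0.0417), a call lost in 5 of the 6 fits that left out 1 library. Col4a3bp, which encodes the ceramide transfer protein CERT, was at 37.8 to 60.3 CPM in wild type and 36.9 to 44.5 CPM in knockout and was not called (−0.31 ± 0.20).

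How far the calls depend on single livers was examined by leaving out each in turn. Leaving out wild type 2, 4 or 11 gave 3, 2 or 3 called members, and leaving out knockout 1, 2 or 4 gave 3, 2 or 7. The 7 added Sptlc2, Cers2 and Sgpp1 to the original 4. Over all tested genes the counts were 827, 630 and 1691 and then 804, 979 and 4046. With knockout 4 as the 1 knockout, which is then assumed to vary as the wild types do, 0 of the 32 members were called by edgeR (6 at an unadjusted p under 0.05). With the mitochondrial share as a covariate 0 were called (2 at an unadjusted p under 0.05). No other tool was run for these last fits. In both, the 4 genes kept their sign.

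**Figure D4:**
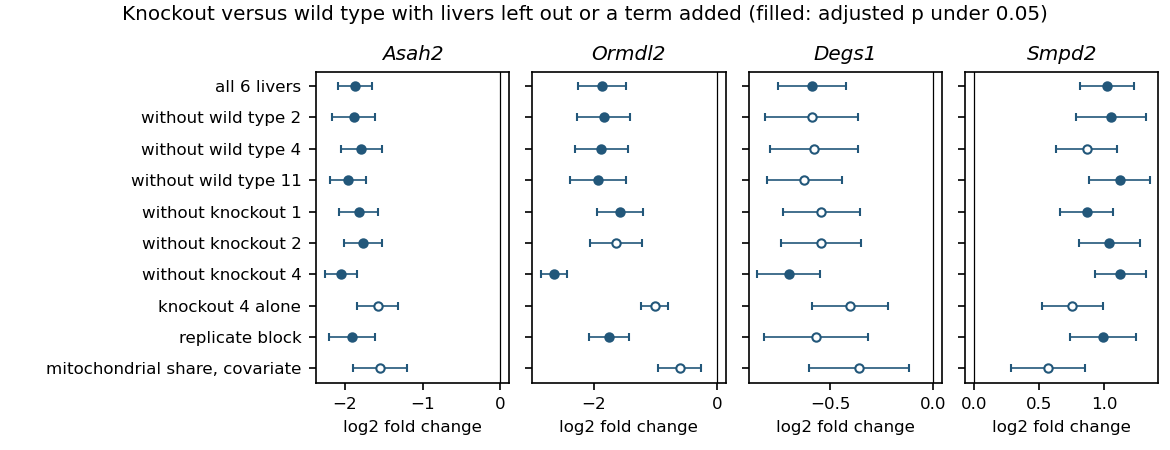
Log2 fold change (knockout over wild type) with its SE for the 4 called genes in the fit of all 6 livers, with each liver left out, with knockout 4 as the 1 knockout, with the replicate block and with the mitochondrial share as covariate. Filled points have an adjusted p under 0.05, and Asah2 is filled in every fit that left out 1 liver. The replicate block compares the genotypes only within the numbers that both genotypes hold.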

How the data were processed

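Liver RNA of 3 wild-type and 3 Nogo knockout mice was extracted with an RNeasy kit and sequenced from SMARTer mRNA-Seq libraries, per the labels' protocols. The authors deposited raw counts per gene, whole numbers with no normalization. The submitters' processing notes name mm10 as the build. Not given in the sources used here were the aligner, counting program, annotation, strand setting and treatment of reads that several genes share. Reads of overlapping or near-identical genes can be dropped or misassigned in such counts.

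Counts were tested in R 4.3.3 with edgeR 4.0.16 (quasi-likelihood F test, TMM scaling, filterByExpr, 13304 genes kept), with Benjamini-Hochberg adjustment over all of them, two-sided, and a threshold of 0.05. The SE was taken as |log2 fold change| over the square root of F. DESeq2 1.42.0, limma-voom (limma 3.58.1), other scalings and filters, each library left out, a replicate block and the mitochondrial share as covariate were alternatives. The test was checked on simulated data. Coordinates, exon lengths and overlaps come from GENCODE M21 (mm10), promoters from RefSeq (GRCm38.p6). Libraries held 17568223 to 20902369 counts. Pairs of libraries of 1 genotype differed by 21.0 to 171 chi-square per degree of freedom, so no such pair held the same counts. That each library is a separate mouse rests on the labels. P-values set the difference between genotypes against the spread between livers of the same genotype, an estimate moderated across genes. The members and lists, from function, were chosen with earlier results of these data known. All 35 members are accounted for. Called members and up to 12 called other sphingolipid genes were to be given in full (1 of the latter is not reported here), with Rtn4, Sptlc3, Sptssb, Col4a3bp and Apom whatever their values. Dnajc14, Mical1, Cers1 and Cers3 were named after their values were seen, as was the overlap of 20%.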

Additional observations from a re-analysis of the deposited data

How the results depend on the processing

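Under RLE size factors, DESeq2, limma-voom, a filter of 1 CPM in 3 libraries and TMM without mitochondrial genes, the same 4 members were called. Library totals gave 5 (Sptlc2 added) and no low-count filter 6 (Asah1 and S1pr1 added). Leaving out 1 library gave 2 to 7 called members, 4 to 12 other sphingolipid genes and 630 to 4046 of all genes, against 4, 6 and 2268. With knockout 4 alone the counts were 0, 0 and 25, and with the mitochondrial covariate 0, 0 and 0 (1146 of all genes at an unadjusted p under 0.05). Library totals split all calls into 690 rises and 1566 falls, against 1165 and 1103 with TMM. The cause of these shifts was not tested. A fit without 1 library has fewer samples, and the highest of the leave-out counts came from the fit without knockout 4.

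With the replicate block (numbers 2 and 4 occur in both genotypes) 3 members, 5 other sphingolipid genes and 1686 genes were called, and Degs1 was lost. Same-numbered libraries deviated from their group means with correlations of −0.06 and 0.07 across genes, and nothing in the labels ties a number to a litter.

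Uncalled members changed sign in some fits. With knockout 4 alone the log2 fold changes were −0.38 for Sgpl1, 0.0903 for Smpd1, −0.0201 for Spns2, −0.0597 for Sphk2, −0.0829 for Ugcg, 0.0681 for Kdsr, −0.30 for Cerk and −0.005 for Cers5. With the mitochondrial covariate they were −0.44 for Sgpl1, 0.16 for Smpd1, −0.15 for Spns2, 0.0145 for Samd8, −0.0295 for Sphk2, 0.13 for S1pr1, 0.12 for Sptlc1, 0.21 for Kdsr, −0.34 for Cerk and −0.30 for Cers5. With the block they were 0.18 for Ormdl3, −0.0452 for Sgpl1 and 0.0268 for Smpd1. With library totals they were −0.0591 for Sgpl1 and −0.0985 for Sphk2. With libraries left out they ranged from −0.37 to 0.075 for Ormdl3, from −0.0034 to 0.30 for Sgpl1, from −0.11 to 0.0194 for Smpd1 and from −0.14 to 0.29 for Sphk2. Cers4, Cers5, Cerk, S1pr2 and Sphk1, under 100 counts in each library, are limited by depth.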

Other observations

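Called sphingolipid genes often shared exonic bases with a gene on the other strand. Of the 10 called among the 72 tested sphingolipid genes, 5 shared at least 20% of their exonic bases in this way, among them Ormdl2 (66.7%, with Dnajc14), Plpp1 (25.8%, with Mtrex), B4galnt1 (20.7%, with Slc26a10) and Smpd2 (20.3%, with Mical1). Among the 62 that were not called, 1 did (Sphk2). The other 5 called genes (Asah2, Degs1, Smpdl3a, Apom and Hsd17b12) shared 0%. Over all genes with an annotation, 207 of the 2265 called and 694 of the 13300 tested shared at least 20%. Of these 694 genes 29.8% were called, 11.2% as rises and 18.6% as falls. Of the 9293 genes without such overlap 16.4% were called, 8.77% as rises and 7.58% as falls, and of the 3313 in between 16.3%. The value of 20% was chosen after the data were seen, and the reason for the difference was not tested.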
